A study of Rattus norvegicus with 12 samples.

Results

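Transcripts of the delayed rectifier subunit Kv2.2 (Kcnb2) and of 8 silent voltage-gated K+ channel subunits (Kcns1, Kcns2, Kcns3, Kcnf1, Kcng1, Kcng2, Kcng3 and Kcnv1) were followed in rat hippocampal neurons whose activity had been blocked or raised. A probe was taken as a member when the gene name in the array files, without the endings "_predicted" and "_mapped" and in any letter case, was 1 of these 9 symbols. This gave 9 of the 35716 distinct gene names on the arrays, through 11 of the 41012 probes: 3 for Kcng2 and 1 for each of the other genes. Dissociated hippocampal neurons from E18.5 Sprague-Dawley embryos were grown at high density and, at 10 to 13 days in vitro, were kept for 48 h in vehicle (CTL), in TTX (0.5 to 1 μM) or in BC (20 μM). TTX, tetrodotoxin, blocks voltage-gated Na+ channels and with them action potentials, and BC, bicuculline, blocks GABA-A receptors and so removes fast inhibition. Vehicle was 0.1% DMSO by the sample labels, although the methods name water. Each group had 4 RNA samples, each on its own one-color Agilent array, and whether those 4 were grown as separate cultures is not given in the sources used here. The p-values therefore reflect sample-to-sample spread that could be technical in part or in whole.

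Kv2 subunits form the pore of a delayed rectifier K+ channel, which repolarizes the membrane after action potentials and carries much of the delayed rectifier current of hippocampal pyramidal neurons. The silent subunits of the Kv5 (Kcnf1), Kv6 (Kcng1, Kcng2 and Kcng3), Kv8 (Kcnv1) and Kv9 (Kcns1, Kcns2 and Kcns3) families do not make functional channels alone. They join Kv2 subunits in mixed tetramers and change how these channels open, close and inactivate and how many reach the cell surface. The pore-forming and silent transcripts of these bulk cultures are therefore read here gene by gene.

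The arrays compare transcripts through probes of 60 bases, and 3 of them are shown because they carried the steepest TTX change and both changes called with BC. Positions are those in the array files, on the rn4 build, and no annotation of that build was used here, so exon and UTR positions are not given. The Kcns3 probe lies at chr6:34534867-34534926 on the minus strand (38.3% G and C), and its first 30 bases are printed. The Kcnf1 probe lies at chr6:40911259-40911318 (45.0% G and C) and the Kcng3 probe at chr6:6947835-6947894 (45.0% G and C), both on the minus strand. All letters are in lower case because no motif is singled out.
Kcns3: atcatttaattctcagggtgtaccttttag
Kcnf1: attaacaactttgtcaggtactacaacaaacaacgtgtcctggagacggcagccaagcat
Kcng3: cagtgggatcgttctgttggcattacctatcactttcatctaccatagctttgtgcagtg

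All 11 probes were well above background on all 12 arrays. Over the series, 74.1 to 78.1% of probes were so on each array. Values below are log2 processed signals after quantile normalization, in which a difference of 1 is a doubling. A probe was called when its Benjamini-Hochberg adjusted p from limma, over all probes, was under 0.05 and its change was at least 1.5-fold. There were 4 slides, each carrying 1 array per group. After removal of group means arrays of slides 1 and 3 resembled each other, as did those of slides 2 and 4. Each call of a member against CTL is therefore also given by slide. Among cell type markers, those of glutamatergic neurons, GABAergic interneurons, astrocytes and the oligodendrocyte lineage were detected, and of 9 microglial markers Cd68, C1qb, Csf1r and P2ry12 were well above background on all 12 arrays, Cx3cr1, C1qa and Tmem119 on 1 or 2, and Aif1 and Itgam on none. The 9 summed to a linear signal of 468 to 630 per array. None of them was called against CTL, and P2ry12 was called between TTX and BC (log2 difference 0.89, limma adjusted p = 0.00579). Levels of different probes are not set against each other.

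**Figure D1:**
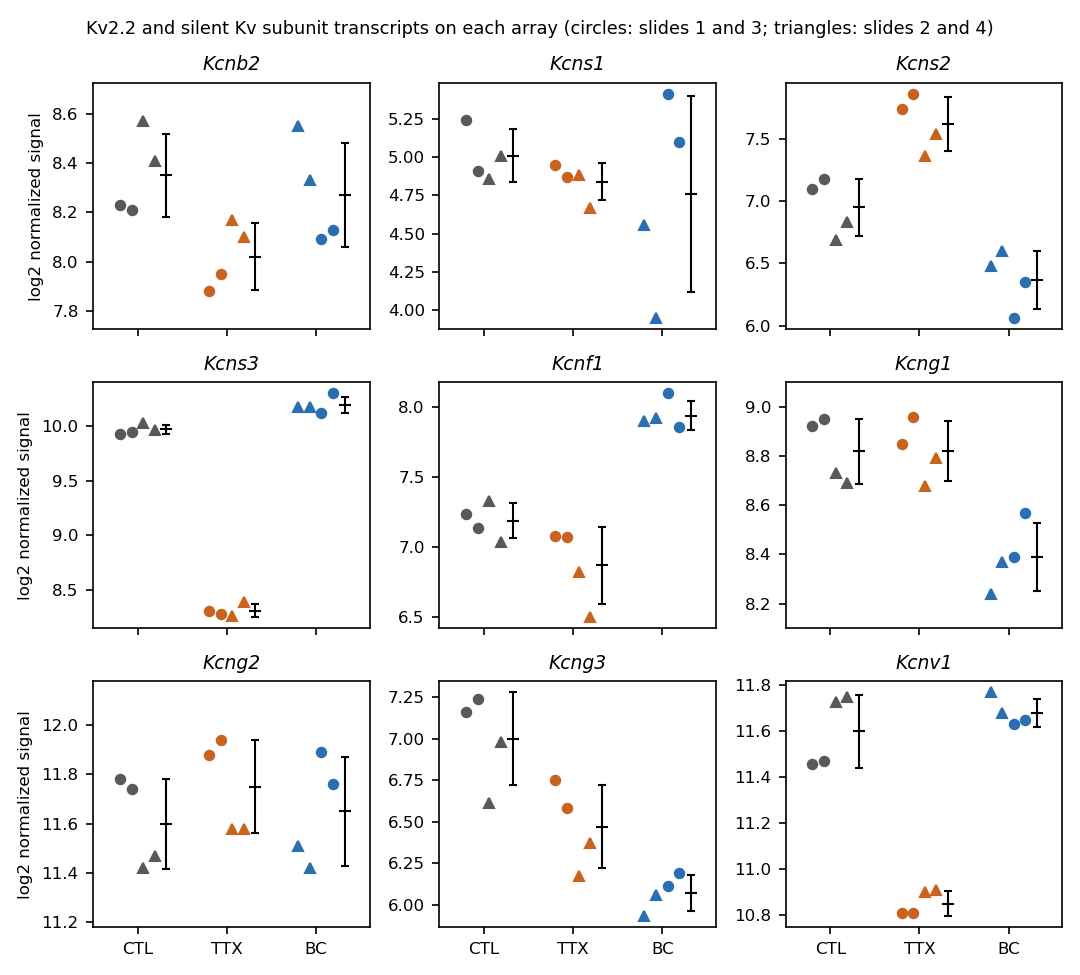
Log2 normalized signal of the brightest probe of each of the 9 genes (y axis, with its own range in each panel) on the 4 CTL, 4 TTX and 4 BC arrays (x axis). Circles are arrays of slides 1 and 3, triangles arrays of slides 2 and 4, and bars the mean ± SD, and Kcns3 in TTX (8.26 to 8.39) lies far below CTL (9.93 to 10.03).

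With TTX, 3 of the 9 genes were called against CTL, and all 3 were silent subunits, which make up 8 of the 9: Kcns3 and Kcnv1 fell and Kcns2 rose. Over all probes, 4.18% were called in this comparison, 2.73% as lower and 1.45% as higher. With BC, 2 of the 9 were called against CTL, where 3.64% of all probes were called (2.12% higher and 1.52% lower): Kcnf1 rose and Kcng3 fell. Both comparisons use the same 4 CTL arrays. Between TTX and BC arrays 4 of the 9 were called, against 11.2% of all probes (4.95% higher and 6.22% lower in TTX). By the adjusted test alone, with no fold threshold, 3 of the 9 passed for TTX, 5 for BC and 5 between TTX and BC, against 9.89%, 8.2% and 24.1% of all probes. All members were well above background, whereas all probes include some that were not. With only probes well above background on all 4 arrays of at least 1 group kept, 1735 of 30662 were called for TTX. For BC these were 1498 of 30660, and between TTX and BC 4377 of 30662. The members were chosen with earlier results of these data known, so these shares are a description and no test of the set.

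The pore-forming subunit Kcnb2 (probe at chr5:2683959-2684018, minus strand) was not called in any comparison. On the log2 scale its arrays read 8.23, 8.21, 8.57 and 8.41 in CTL, 7.88, 7.95, 8.17 and 8.10 in TTX and 8.55, 8.33, 8.09 and 8.13 in BC. The TTX arrays all lay below the CTL arrays, whereas the BC arrays spanned both groups. The log2 difference of TTX from CTL was −0.33 ± 0.121 (SE, n = 4 arrays per group, 95% interval −0.60 to −0.06), and it was negative on each of the 4 slides, but without a slide term it did not pass limma's adjusted test (adjusted p = 0.126). It passed with slide as a block (limma adjusted p = 0.0118) or slide set as a block (limma adjusted p = 0.00394), not with the arrays of a slide set averaged (0.0889) or as a random block (0.257), and at 1.26-fold it was under the fold threshold in each fit. For BC against CTL the log2 difference was −0.08 with a 95% interval of −0.35 to 0.19 (limma adjusted p = 0.836). TTX differed from BC by −0.25 (95% interval −0.52 to 0.02, limma adjusted p = 0.181, or 0.0193 with slide and 0.00846 with slide set as a block). Kcnb2 was also lower by 0.22 to 0.33 on slides 1 and 3 than on slides 2 and 4 within each group, a gap that reached the size of the TTX difference. Within slides 1 and 3 the TTX difference was −0.31 and within slides 2 and 4 it was −0.36.

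Kcns3, which encodes the silent subunit Kv9.3, showed the steepest change among the 9 genes. Its log2 levels were 9.93, 9.95, 10.03 and 9.96 in CTL and 8.31, 8.28, 8.26 and 8.39 in TTX. The BC arrays stood at 10.17, 10.17, 10.12 and 10.30. The 3 groups did not overlap, with TTX lowest and BC highest, and the SD within a group was at most 0.075. TTX lowered Kcns3 3.16-fold (log2 difference −1.66 ± 0.0569, SE, limma adjusted p = 1.6e-07), with differences of −1.71 to −1.64 over the 4 slides, and the call held in all 26 alternatives. BC gave a log2 difference of 0.22 ± 0.0569 (limma adjusted p = 0.0394), which passed the adjusted test but at 1.16-fold was under the fold threshold. Over the 26 alternatives this BC difference was 0.18 to 0.24, and its limma adjusted p ran from 0.0169 to 0.188, so the pass depended on the setting. In these bulk samples, fewer cells that express a gene and less RNA per cell cannot be told apart.

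Kcns3 is known from cortex as a subunit of parvalbumin-expressing interneurons, and with TTX most interneuron markers measured fell as it did. The parvalbumin gene Pvalb had a log2 difference of −1.18 with TTX (limma adjusted p = 0.002) and of −0.09 with BC (limma adjusted p = 0.894). Of 14 measured markers of GABAergic interneurons, 8 were called lower and 1 higher with TTX, with a median log2 difference of −0.85 beside 0.01 over all probes. The linear signals of the 14 summed to 317000 to 371000 on CTL arrays, 137000 to 147000 on TTX arrays and 417000 to 477000 on BC arrays, and each marker was above background on at least 1 array. Against CTL, BC called 2 of them higher and 1 lower, with a median log2 difference of 0.12 beside −0.007 over all probes. Of 4 pan-neuronal and 8 astrocyte markers none was called with either drug against CTL, and of 6 glutamatergic markers 1 was called higher with TTX and 1 lower with BC. The part of interneuron number or RNA in the Kcns3 result was not tested.

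Kcns2, which encodes Kv9.2, moved in the other direction. Kcns2 stood at log2 levels of 7.10, 7.18, 6.69 and 6.83 in CTL, 7.74, 7.86, 7.36 and 7.54 in TTX and 6.48, 6.60, 6.06 and 6.35 in BC. The groups did not overlap, and the order was TTX above CTL above BC, the reverse of Kcns3. TTX raised Kcns2 1.59-fold (log2 difference 0.67 ± 0.154, limma adjusted p = 0.0194), by 0.53 to 0.85 on the 4 slides. The call ended in 9 of 26 alternatives: 3 background treatments or deposited values (0.48 to 0.50, under the fold threshold), both settings that joined arrays of a slide set (limma adjusted p = 0.0572 as a random block and 0.199 when averaged), and the fits without CTL replicate 3 or 4 or without TTX replicate 1 or 2 (limma adjusted p = 0.0516 to 0.0589).

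With BC, Kcns2 gave a log2 difference of −0.58 ± 0.154 (limma adjusted p = 0.0441, or 0.0583 with slide and 0.0281 with slide set as a block), 1.49-fold and just under the fold threshold. The size differed between slides, with −0.94 within slides 1 and 3 and −0.22 within slides 2 and 4. The difference was past both thresholds under 75th percentile scaling (−0.60, limma adjusted p = 0.0305) and without CTL replicate 3 or BC replicate 2 (both −0.66). TTX against BC gave the widest gap, 2.38-fold (log2 difference 1.25 ± 0.154, limma adjusted p = 0.000169), with 1.59 within slides 1 and 3 and 0.91 within slides 2 and 4. The Kcns2 probe lies at chr7:70279486-70279545 on the plus strand.

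Kcns1, the third Kv9 gene (Kv9.1, probe at chr3:155103783-155103842, minus strand), was not called in any comparison. Log2 levels of Kcns1 were 4.86 to 5.24 in CTL and 4.67 to 4.95 in TTX, while the BC arrays ran from 3.95 to 5.41. The SD over BC arrays was 0.641 against 0.121 to 0.170 in the other groups, and the BC arrays of slides 1 and 3 lay 1.00 above those of slides 2 and 4. The log2 difference was −0.17 for TTX against CTL (95% interval −0.73 to 0.40) and −0.25 for BC against CTL (95% interval −0.82 to 0.32), with 0.18 within slides 1 and 3 and −0.68 within slides 2 and 4 for BC. Both intervals reach past a 1.5-fold fall, so a change of that size could not be told from none.

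Kcnv1 encodes Kv8.1, a silent subunit known for reducing the currents of the channels it joins. Its log2 levels were 11.46, 11.47, 11.73 and 11.75 in CTL, 10.81, 10.81, 10.90 and 10.91 in TTX and 11.77, 11.68, 11.63 and 11.65 in BC. All TTX arrays lay below all others, and CTL and BC arrays overlapped. TTX lowered Kcnv1 1.68-fold (log2 difference −0.75 ± 0.0786, limma adjusted p = 0.000224), by −0.85 to −0.66 on the 4 slides. With the arrays of a slide set averaged the difference was the same and the limma adjusted p was 0.0567. BC gave 0.08 with a 95% interval of −0.10 to 0.25 (limma adjusted p = 0.714). The Kcnv1 probe lies at chr7:81012914-81012973 on the minus strand.

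Kcnf1 encodes Kv5.1 and was the member called higher with BC. Arrays read log2 levels of 7.24, 7.14, 7.33 and 7.04 in CTL, 7.08, 7.07, 6.82 and 6.50 in TTX and 7.90, 7.92, 8.10 and 7.86 in BC. The BC arrays lay above all others, whereas TTX and CTL arrays overlapped. BC raised Kcnf1 1.69-fold (log2 difference 0.75 ± 0.127, limma adjusted p = 0.00441), by 0.59 to 0.86 on the 4 slides. TTX gave −0.32 (95% interval −0.60 to −0.04, limma adjusted p = 0.157), and its differences on single slides ran from −0.83 to −0.07. Kcnf1 was 2.11-fold lower in TTX than in BC (log2 difference −1.08 ± 0.127, limma adjusted p = 0.000125).

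Kcng3 encodes Kv6.3 and was lower with BC. Kcng3 had log2 levels of 7.16, 7.24, 6.61 and 6.98 in CTL, 6.75, 6.58, 6.17 and 6.37 in TTX and 5.93, 6.06, 6.11 and 6.19 in BC. The BC arrays lay below all CTL arrays, and the TTX arrays overlapped both groups. BC lowered Kcng3 1.90-fold (log2 difference −0.93 ± 0.153, limma adjusted p = 0.00383), by −1.06 to −0.55 on the 4 slides. TTX gave −0.53 ± 0.153 (limma adjusted p = 0.0531), which was not called but was called without CTL replicate 3 (−0.66) or without TTX replicate 1 (−0.62). With slide or slide set as a block its limma adjusted p was 0.0116 and 0.00424, at 1.45-fold and so under the fold threshold. Kcng3 was thus below the CTL mean under both drugs, which share the CTL arrays, and TTX differed from BC by 0.40 (95% interval 0.06 to 0.73, limma adjusted p = 0.0902, or 0.0197 with slide and 0.00965 with slide set as a block). Both BC calls, of Kcnf1 and Kcng3, ended under normexp background correction, where the differences were 0.57 and −0.56 with limma adjusted p of 0.00153 and 0.00258, and with the arrays of a slide set averaged, where no probe of the series was called for BC.

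Kcng1 (Kv6.1, probe at chr3:159428084-159428143, minus strand) was lower with BC by less than the fold threshold. Its log2 levels were 8.69 to 8.95 in CTL, 8.68 to 8.96 in TTX and 8.24 to 8.57 in BC, so that BC arrays lay below all others. The log2 difference of BC from CTL was −0.43 ± 0.0944 (limma adjusted p = 0.0175), 1.35-fold, and −0.53 to −0.36 on the 4 slides. For TTX against CTL the 95% interval was −0.21 to 0.20, which lies within 1.5-fold either way.

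Kcng2 (Kv6.2) was measured by 3 probes on chromosome 18, 2 of which share 20 bases and so are not independent, with 71.7 to 73.3% G and C. None of the 3 was called in any comparison. The brightest (chr18:77190650-77190709, minus strand) stood at 11.42 to 11.78 in CTL, 11.58 to 11.94 in TTX and 11.42 to 11.89 in BC, and the groups overlapped. Its 95% intervals were −0.16 to 0.44 for TTX and −0.25 to 0.34 for BC against CTL, and the other probes gave differences of 0.11 each for TTX and of 0.08 and 0.01 for BC. The brightest probe's TTX difference of 0.14 had a limma adjusted p of 0.629, or of 0.0395 with slide and 0.0418 with slide set as a block, at 1.11-fold. In all 3 groups and for all 3 probes, arrays of slides 1 and 3 were higher than those of slides 2 and 4, by 0.20 to 0.57.

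**Figure D2:**
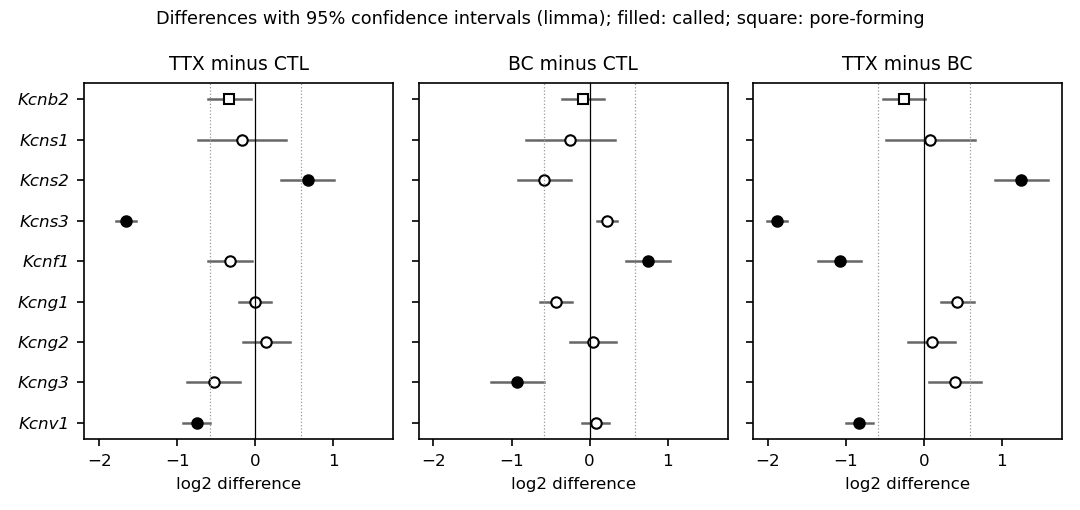
Log2 difference (x axis) of each gene (y axis) for TTX minus CTL, BC minus CTL and TTX minus BC, with 95% confidence intervals from limma as lines, filled symbols for called genes, a square for pore-forming Kcnb2 and dotted lines at 1.5-fold. Filled symbols stand in silent subunits, which are 8 of the 9 genes, on both sides of 0. The Kcnb2 differences lie between −0.33 and −0.08, and its interval for TTX minus CTL (−0.60 to −0.06) reaches past the 1.5-fold line.

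Set beside each other, all calls fell on silent subunits, and these moved in both directions rather than as a block. With TTX their log2 differences ran from −1.66 to 0.67 with a median of −0.24, 4 of the 8 being larger in size than the −0.33 of Kcnb2. With BC they ran from −0.93 to 0.75 with a median of −0.10, and 6 of 8 were larger in size than the −0.08 of Kcnb2. The median size of a silent subunit's log2 difference was 0.43 for TTX and 0.34 for BC, against 0.161 and 0.147 over all probes. Because the members were chosen with earlier results of these data known, values set beside all probes only describe the set. All probes also include those not well above background, whereas the members were all above it. Groups did not overlap for 4 of the 9 genes with TTX, 5 with BC and 5 between TTX and BC, against 15.8%, 13.8% and 26.6% of all probes. With 1 pore-forming gene in the set, the difference between the 2 kinds of subunit was not tested.

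**Figure D3:**
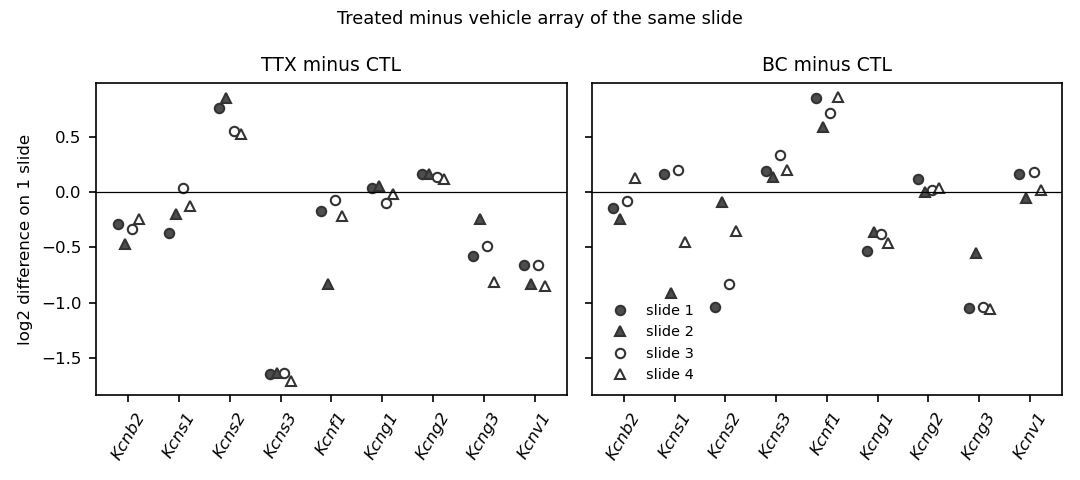
Log2 difference (y axis) between the treated and the CTL array of the same slide for each gene (x axis), for TTX and for BC, with circles for slides 1 and 3 and triangles for slides 2 and 4. Kcns3 with TTX differs little between slides (−1.71 to −1.64), while Kcns2 with BC ranges from −1.04 to −0.09.

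Around the channel itself, 21 of 22 listed genes for partner subunits and for auxiliary, anchoring and modifying proteins of Kv2 channels were measured. Against CTL, TTX lowered 1 of them and raised none, while BC raised 1 and lowered 1. Amigo2, a paralog of the Kv2 auxiliary subunit Amigo1, had a log2 difference of −1.51 ± 0.0879 with TTX (limma adjusted p = 5.49e-06) and of 1.36 ± 0.0879 with BC (limma adjusted p = 1.68e-05). Vapb, an endoplasmic reticulum protein that binds Kv2 at contacts with the plasma membrane, fell with BC by 0.60 on the log2 scale (limma adjusted p = 0.0468). The medians of the 21 were −0.01 with TTX and 0.04 with BC, beside 0.013 and −0.007 over all probes. Between TTX and BC, 2 of the 21 were called higher and 3 lower in TTX, against 11.2% of all probes called in either direction. The called genes were Amigo2 (−2.88), Vapb (0.86), the calcineurin subunits Ppp3r1 (−0.77) and Ppp3ca (0.70), and the syntaxin Stx1a (−0.59). Of 24 measured pore-forming Kv genes of other families, 4 were called lower and none higher with TTX, and 2 higher and none lower with BC, with medians of −0.14 and −0.09. Over all probes, 2.73% were called lower with TTX and 2.12% higher with BC.

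For each member called against CTL, the most similar profiles were sought by Pearson correlation over the 12 arrays among 28783 probes well above background on every array. The points share groups and slides, so the values describe these arrays and carry no test. Kcns3 was most like Tac1, Gad1 and Vgf (r = 0.997 each), of which Gad1, the GABA-synthesizing enzyme, is also an interneuron marker. Kcnv1 was most like Klf5 (0.989), Ets1 (0.985) and C3h11orf96 (0.984). Kcnf1 was most like Pipox (0.981), Trib1 (0.979) and Timmdc1 (0.979). Kcns2 was most like Samd14 (0.981), Ppfibp1 (0.980) and Limk2 (0.977), and Kcng3 was most like Lypd1 (0.962), Abcc5 (0.955) and Aqp11 (0.953).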

How the data were processed

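RNA of 4 CTL, 4 TTX and 4 BC samples was measured on 12 one-color arrays. The authors deposited spot intensities, from which Feature Extraction 9.5.1.1 had subtracted background and a spatial trend within each array. The authors also deposited quantile-normalized log2 values, used here only as an alternative, which rank as the median spot signal without background correction. Groups were taken from the sample labels. The processed signals were taken to log2, spots that the software marked as outliers were left out, and arrays were quantile-normalized. All 12 arrays entered 1 limma fit (version 3.58.1, R 4.3.3, lmFit and eBayes) with a mean for each group, and p-values were adjusted by Benjamini and Hochberg's method over all probes of a comparison. The brightest probe, by mean over all arrays, stood for its gene. Other software was data.table (1.17.8), numpy 2.4.6, pandas 2.3.3, matplotlib 3.10.9 and Python 3.11.15. The steps were tested on simulated data for TTX against CTL. Of 50 probes changed 1.5-fold, the fold threshold itself, 9 were called. Of 75 changed 2-fold 45 were called, and of 75 changed 4-fold 66 were called. Of the unchanged probes 4 were called. A change at 1.5-fold was thus mostly missed in the simulation. Fewer probes were changed there than were called in the data, and its noise was independent between arrays. Its miss rates therefore need not hold for the members. The members and lists were chosen with earlier results of these data known. By the rule for named genes, all members, called Kv2 partners (up to 4 per comparison, except that all 5 are given for TTX against BC), and the 3 most similar genes of each called member were named. The number of arrays limits the precision. Replicate numbers were checked as a pairing and did not pair the arrays. Alternatives varied the background correction, normalization, filters, blocks, thresholds, probe summary and arrays used. The results of 1 gene are not reported here.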

Additional observations from a re-analysis of the deposited data

How the results depend on the processing

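The count of called members between TTX and BC was 4 in all fits but the one with no fold threshold, where it was 5. For TTX against CTL the count of 3 became 1 with the arrays of a slide set averaged, and for BC against CTL the count of 2 became 0 with normexp background correction, 0 with averaged arrays and 5 with no fold threshold. Leaving out each array in turn gave 2 to 3 calls for TTX, 2 to 3 for BC and 4 for TTX against BC. With the replicate block the counts were 3, 2 and 4, as without it, and residuals of same-numbered arrays had r of 0.28 to 0.38 for CTL with TTX but of −0.35 to −0.24 for CTL with BC, so the numbers were not taken as pairs. Differences near 0 changed sign: Kcng1 with TTX (−0.00406) was 0.00232 under normexp, 0.02 with uncorrected median signals, 0.00409 under 75th percentile scaling, 0.02 in the deposited values and −0.05 to 0.04 without single arrays. Kcns1 between TTX and BC (0.08) was −0.00208, −0.01 and −0.01 under normexp, uncorrected and deposited values and −0.19 to 0.30 without single arrays. Without single arrays Kcng2 with BC ran from −0.04 to 0.12 and Kcns1 with BC from −0.47 to 0.02. The causes were not tested. Over all probes, calls for TTX, BC and TTX against BC were 1715, 1493 and 4579, with 882, 762 and 2592 under normexp, 949, 828 and 2753 with uncorrected signals, 938, 830 and 2729 in the deposited values, 512, 0 and 4256 with averaged arrays, and 4054, 3361 and 9867 with no fold threshold.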
